A study of Homo sapiens with 4 samples.

Results

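TP53INP1, TP53I3, PLK3 and CCNG1 are target genes of the tumour suppressor p53 outside the BCL2 family. Their transcript levels were measured in HCT116 cells, a human colorectal carcinoma line, under replicative stress and inhibition of histone deacetylases (HDACs). They were selected by gene symbol, and each of the 4 symbols had 1 transcript cluster, out of 14884 genes with a named cluster. The 4 conditions were 2 µM MS-275 combined with 1 mM hydroxyurea (MS-275/hydroxyurea), 1 mM hydroxyurea, 2 µM MS-275 and no treatment, and treatment lasted 24 h. MS-275 (entinostat) is a benzamide that inhibits HDAC1, HDAC2 and HDAC3. Hydroxyurea inhibits ribonucleotide reductase and thereby stalls replication forks. Each condition was represented by a single microarray, so differences carry no error, replicate check or p-value, and all values describe these 4 arrays. The study asked how class I HDACs bear on the response to stalled replication, and these genes address its p53 branch.

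p53 is a transcription factor that checkpoint kinases stabilise when replication stalls or DNA breaks. It raises the transcription of genes for cell cycle arrest, apoptosis, metabolism and repair, and of genes that feed back on p53 itself. The 4 genes represent different arms of this response. TP53INP1 encodes a stress-induced nuclear protein that acts with the kinase HIPK2 on p53 and also binds autophagy proteins of the LC3 family. TP53I3 (PIG3) encodes a quinone oxidoreductase-like enzyme linked to reactive oxygen species and apoptosis. PLK3 encodes a polo-like kinase of the stress response, which can phosphorylate p53, and its gene also behaves as an immediate early gene. CCNG1 encodes cyclin G1, which recruits the phosphatase PP2A to the p53 antagonist MDM2.

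The values are intensities on a linear scale after robust multi-array averaging (RMA), which subtracts background, brings the arrays to a common distribution and summarises the probes of a transcript cluster. Over all 53617 clusters they ran from 1.92 to 17815, and the arrays' medians lay between 45.9 and 47.1. Differences are log2 ratios of intensities, and a gene was called where it passed 1.5-fold. Shares over all genes refer to 7649 genes with a geometric mean intensity of 90.5 or more, which is the median of the named clusters. The comparisons against untreated cells share that array, whereas hydroxyurea against untreated cells and MS-275/hydroxyurea against MS-275 have no array in common. All 4 p53 targets passed this filter. Of the colorectal epithelial markers, EPCAM was at 865 to 1152 and KRT18 at 1646 to 2090. Others moved more, with KRT19 at 552 to 1083, highest with MS-275, and CLDN4 at 299 to 523, lowest with MS-275. Their part in the results was not tested. Of the 12 named epithelial markers, 5 stayed below 90.5 on every array (CDX1, VIL1, CEACAM5, CEACAM6 and LGR5). CEACAM5 (20.2 to 73.9), CEACAM6 (10.0 to 32.4) and LGR5 (28.5 to 75.4) were each highest with MS-275/hydroxyurea, and their part in the results was not tested. The named fibroblast and endothelial markers were below 90.5 on every array. Of 7 leukocyte markers, 3 were named, and they summed to 361 with MS-275/hydroxyurea, 326 with hydroxyurea, 297 with MS-275 and 245 in untreated cells. CD68 made up most of this sum, at 177 to 284, while CD14 stayed at 29.7 to 31.0. CD68 thus moved with treatment, and its part in the results was not tested. Fewer cells of a type and less RNA per cell cannot be told apart in such bulk RNA.

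TP53INP1 was higher with each drug alone and highest with both. Its intensity was 1013 with MS-275/hydroxyurea, 758 with hydroxyurea, 755 with MS-275 and 279 in untreated cells. All 3 treated arrays lay above that of untreated cells, and the arrays with a single drug were nearly equal. Hydroxyurea against untreated cells gave 2.72-fold (1.44 on the log2 scale), a larger difference than in all but 7 of the 7649 genes. MS-275 against untreated cells gave 2.71-fold, and MS-275/hydroxyurea against untreated cells gave 3.63-fold. In the presence of the other drug each difference was below 1.5-fold. Hydroxyurea added to MS-275 gave 1.34-fold, and MS-275 added to hydroxyurea also gave 1.34-fold.

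TP53I3 was higher with hydroxyurea alone. It had an intensity of 144 with MS-275/hydroxyurea, 368 with hydroxyurea, 133 with MS-275 and 168 in untreated cells. The hydroxyurea array stood above the other 3, which lay within 133 to 168. Hydroxyurea against untreated cells gave 2.19-fold (1.13 on the log2 scale). Added to MS-275, hydroxyurea gave 1.08-fold. MS-275/hydroxyurea against hydroxyurea was 2.55 times lower (-1.35 on the log2 scale), and only 23 of the 7649 genes had a lower value in this comparison. MS-275 against untreated cells was 1.26 times lower, which did not pass 1.5-fold. Its geometric mean intensity lay below a stricter filter at the 75th percentile of named clusters (238.5).

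PLK3 was higher with hydroxyurea both without and with MS-275. Its intensity was 432 with MS-275/hydroxyurea, 498 with hydroxyurea, 280 with MS-275 and 216 in untreated cells. Both arrays with hydroxyurea lay above both arrays without it. Hydroxyurea against untreated cells gave 2.30-fold (1.20 on the log2 scale), and MS-275/hydroxyurea against MS-275 gave 1.54-fold (0.62 on the log2 scale). The second of these was close to the limit and was 1.46-fold with a pseudocount of 50. MS-275 against untreated cells gave 1.30-fold, while MS-275/hydroxyurea against hydroxyurea was 1.15 times lower, and neither passed 1.5-fold. With both drugs its intensity was 2.00-fold that of untreated cells.

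CCNG1 differed little between the conditions. Its intensity was 1186 with MS-275/hydroxyurea, 1271 with hydroxyurea, 1030 with MS-275 and 1096 in untreated cells. Both arrays with hydroxyurea were again above both arrays without it, but no comparison passed 1.5-fold. Hydroxyurea against untreated cells gave 1.16-fold, and MS-275/hydroxyurea against MS-275 gave 1.15-fold. A higher value than that of CCNG1 was found for 20.4% of all genes without and for 24.3% with MS-275. MS-275 gave 0.94-fold without hydroxyurea and 0.93-fold with it.

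**Figure D1:**
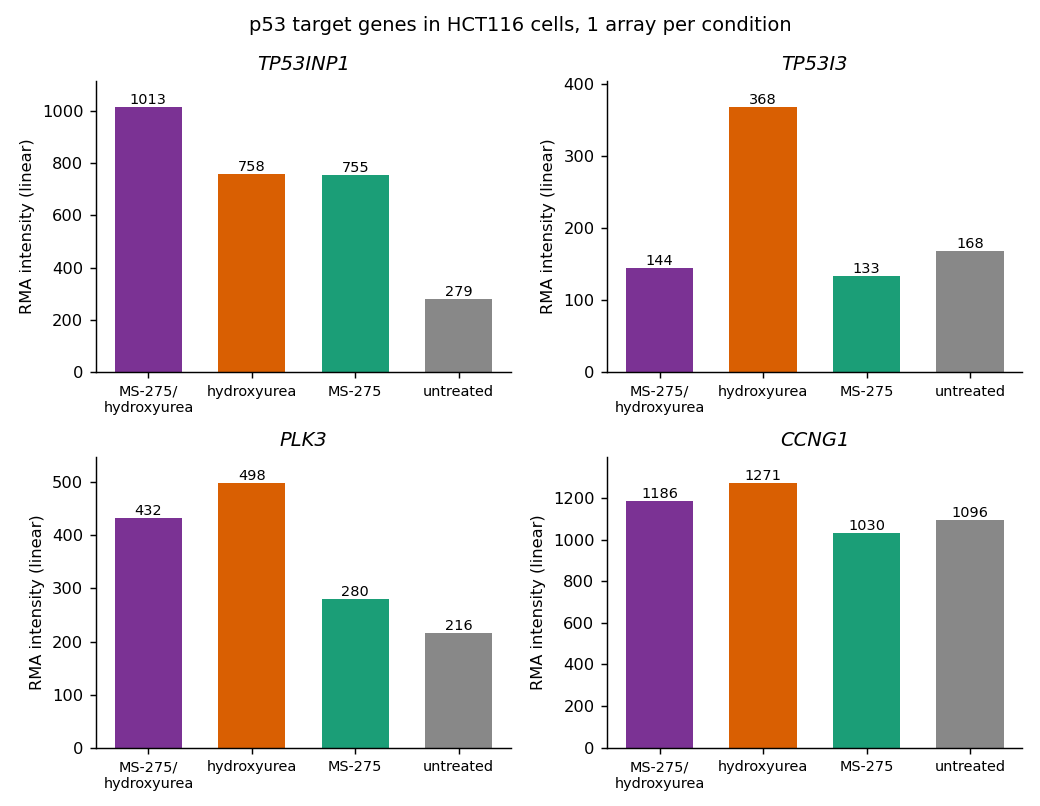
RMA intensity (linear axis from 0) of TP53INP1, TP53I3, PLK3 and CCNG1 on the arrays of MS-275/hydroxyurea, hydroxyurea, MS-275 and untreated cells, with 1 array per bar and no error bars. TP53INP1 was above its untreated value of 279 in all treated cells, TP53I3 stood out at 368 with hydroxyurea alone, PLK3 was higher on both arrays with hydroxyurea, and CCNG1 stayed within 1030 to 1271.

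The DNA before the start sites is shown because the genes share a regulator, p53, but differed in their response to both drugs. RefSeq promoter entries (GRCh38.p14) matched 3 of the 4 genes. The 250 bases before the start are printed 5′ to 3′ on the gene's strand, for TP53I3 (chr2:24084835-24085084, minus strand), PLK3 (chr1:44800127-44800376, plus strand) and CCNG1 (chr5:163437321-163437570, plus strand). Capitals mark CCAAT, the box bound by NF-Y, and GGGCGG, the GC box bound by SP1, on either strand.
TP53I3: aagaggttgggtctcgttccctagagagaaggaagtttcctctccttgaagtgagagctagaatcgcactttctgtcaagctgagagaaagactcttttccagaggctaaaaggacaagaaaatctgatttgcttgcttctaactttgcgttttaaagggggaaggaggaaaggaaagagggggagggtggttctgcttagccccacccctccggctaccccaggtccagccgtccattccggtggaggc
PLK3: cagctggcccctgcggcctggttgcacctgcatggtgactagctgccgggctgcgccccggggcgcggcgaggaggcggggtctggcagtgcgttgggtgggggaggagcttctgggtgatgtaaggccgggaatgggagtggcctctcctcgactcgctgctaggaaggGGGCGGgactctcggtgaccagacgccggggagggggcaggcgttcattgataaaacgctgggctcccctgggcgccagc
CCNG1: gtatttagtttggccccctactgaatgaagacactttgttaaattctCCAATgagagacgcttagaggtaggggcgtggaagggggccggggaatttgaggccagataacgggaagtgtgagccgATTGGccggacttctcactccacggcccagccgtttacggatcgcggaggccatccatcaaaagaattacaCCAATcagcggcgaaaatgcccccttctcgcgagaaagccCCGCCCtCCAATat

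These windows differed in composition, with 51.2% G and C for TP53I3, 70.0% for PLK3 and 54.0% for CCNG1, beside a median of 58% over the same window of 27305 genes. CCNG1 held 4 matches to CCAAT and 1 to GGGCGG. PLK3 held 1 match to GGGCGG, and TP53I3 held none of either motif. CCAAT occurred in 33.0% and GGGCGG in 42.3% of all such windows. The consensus decamer of p53 was searched on both strands and was not found in these 3 windows, while 5.53% of all windows held it. TATAAA was not found either and occurred in 11.1%. No searched motifs overlapped here, and a match or its absence in these letters describes the window only.

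The counts over the 4 genes were read against those over all genes. For hydroxyurea against untreated cells, 3 of the 4 genes were called higher, where 3.12% of all genes were, and 0 lower, where 1.27% were. For MS-275/hydroxyurea against MS-275 this was 1 of 4 (PLK3), where 4.84% of all genes were called, and 0 were lower, where 1.03% were. PLK3 was thus the only 1 of the 4 called higher both without and with MS-275, as were 1.36% of all genes. MS-275 against untreated cells gave 1 of 4 higher (TP53INP1), with 6.94% over all genes, and 0 lower, with 6.84%. MS-275/hydroxyurea against hydroxyurea gave 1 of 4 lower (TP53I3), with 5.41% over all genes, and 0 higher, with 8.67%. MS-275/hydroxyurea against untreated cells gave 2 of 4 higher (TP53INP1 and PLK3), with 11.7% over all genes, and 0 lower, with 6.84%. The 4 genes had been chosen with results of these arrays known, so these counts describe them and are not independent evidence.

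How MS-275 changed the hydroxyurea difference was measured as non-additivity. This is the log2 difference between MS-275/hydroxyurea and MS-275 minus that between hydroxyurea and untreated cells, and a negative value means a smaller difference with MS-275 where hydroxyurea alone gave a value above 0, as for all 4 genes, and a larger one where it gave a value below 0. It was -1.02 for TP53I3, -1.02 for TP53INP1, -0.58 for PLK3 and -0.01 for CCNG1. Of the 4 genes, 2 were thus past 1.5-fold below 0, where 1.57% of all genes were, and PLK3 lay just short of this limit. None of the 4 was past it above 0, where 2.72% of all genes were. In rank from the lowest of the 7649 genes, TP53I3 was at 10, TP53INP1 at 12 and PLK3 at 123, whereas CCNG1 was near the middle at 3350. With MS-275 present, the log2 difference of hydroxyurea was 9.72% of that without MS-275 for TP53I3, 29.4% for TP53INP1, 51.8% for PLK3 and 94.8% for CCNG1.

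**Figure D2:**
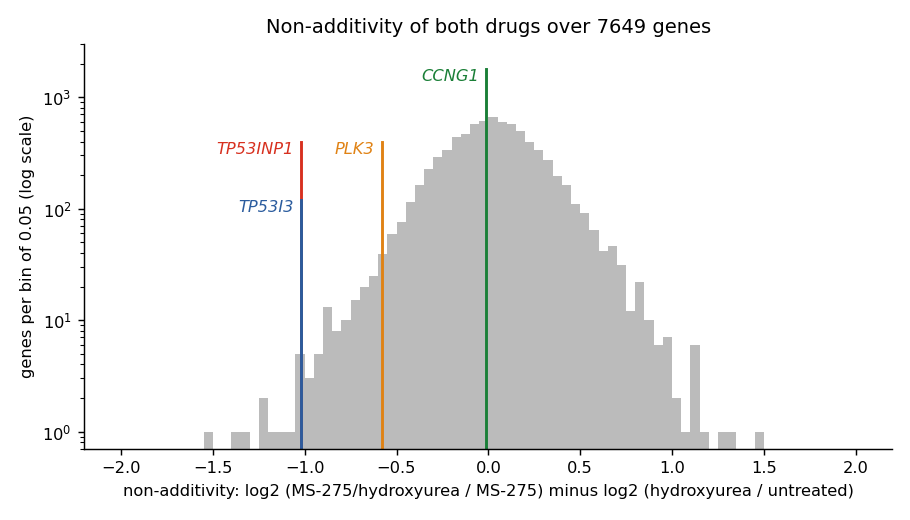
Number of genes (log axis) by non-additivity on the log2 scale for the 7649 genes above the filter, with vertical lines at the values of the 4 p53 targets, whose heights carry no value. TP53I3 and TP53INP1, both at -1.02, lay in the lower tail, PLK3 at -0.58 lay nearer to the bulk, and CCNG1 at -0.01 lay at its centre.

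Non-additivity on the log2 scale compares the measured intensity with the product of both folds, and a sum of intensity differences is another yardstick. TP53INP1 reached 1013 with both drugs, against 2053 for the product of its folds and 1235 for the sum of its differences. TP53I3 reached 144, against 292 for the product and 333 for the sum. For PLK3 the measured 432 compared with 646 and 562, and for CCNG1 the measured 1186 compared with 1195 and 1206. TP53INP1 and TP53I3 were both at 49% of the product, yet TP53INP1 was at 82.1% of the sum and TP53I3 at 43.2%. The 2 genes therefore had nearly the same non-additivity on the log2 scale with different positions relative to untreated cells. TP53INP1 was 3.63-fold higher with both drugs, whereas TP53I3 was at 0.86-fold, which did not pass 1.5-fold.

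A smaller hydroxyurea difference with MS-275 was common among the genes that hydroxyurea raised. Of the 239 genes past 1.5-fold with hydroxyurea against untreated cells, 181 (75.7%) had a smaller difference with MS-275, and 104 also passed 1.5-fold there, PLK3 among them. The 239 genes were selected on the first difference, so a smaller second one is a description and no test. Their median log2 difference was 0.73 without and 0.51 with MS-275, and their median non-additivity was -0.30. Of the 239 genes, 44 had a non-additivity past 1.5-fold below 0, TP53I3 and TP53INP1 among them and PLK3 not.

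**Figure D3:**
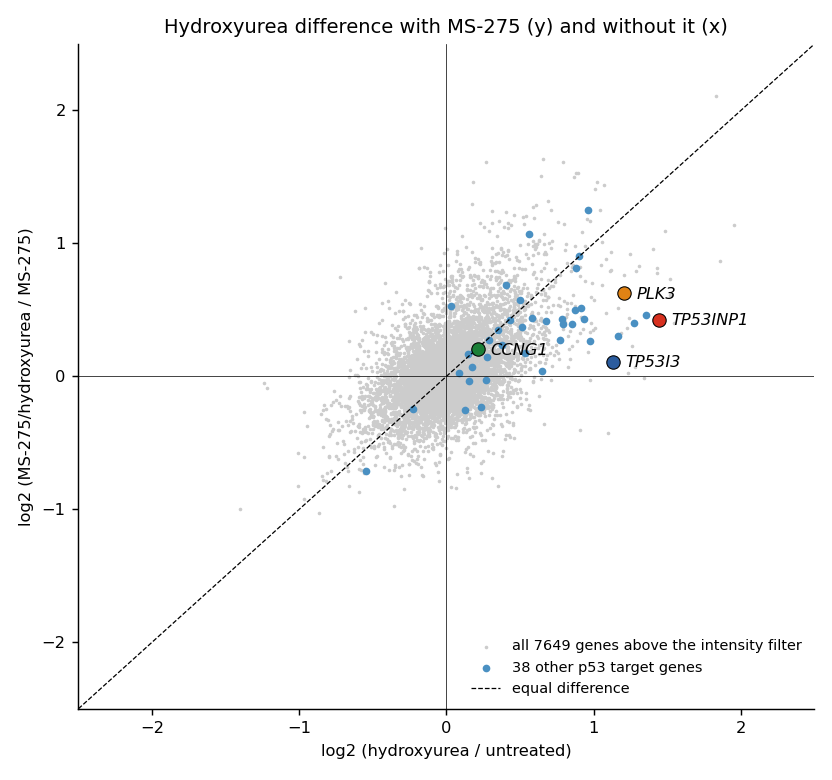
Log2 difference with hydroxyurea in the presence of MS-275 (y axis) and in its absence (x axis) for 7649 genes (grey), 38 other p53 target genes (blue) and the 4 labelled genes, with equality dashed. The 2 axes share no array. TP53INP1 (0.42 on y, 1.44 on x), TP53I3 (0.11, 1.13) and PLK3 (0.62, 1.20) lay below the dashed line and CCNG1 (0.20, 0.21) lay close to it.

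The wider set of p53 targets was examined in 6 lists by function, which hold 82 genes, some of them in more than 1 list. Of these, 48 had a named cluster and 42 passed the filter. CDKN1A and MDM2 are not analysed here. Of the 42 genes, 19 were called higher with hydroxyurea against untreated cells and 0 lower, where 3.12% and 1.27% of all genes were. The median log2 difference was 0.55, beside 0.01 over all genes. With MS-275 present, 6 were called higher with hydroxyurea and 1 lower (KITLG, the ligand gene of the receptor KIT), where 4.84% and 1.03% of all genes were, with a median of 0.36 beside 0.03. Non-additivity was below 0 in 34 of the 42, where it was below 0 in 45.8% of all genes, and its median was -0.18 beside 0.02. Of these 34, KITLG and MDM4 had hydroxyurea differences below 0, which were further below 0 with MS-275. The other 40 of the 42 targets had hydroxyurea differences above 0. Among the 239 genes past 1.5-fold with hydroxyurea, non-additivity was below 0 in 75.7%. For the 42 targets this was 81.0%. Only 19 of these targets passed 1.5-fold with hydroxyurea, so the 2 shares are over unlike sets. Without TP53INP1, TP53I3, PLK3 and CCNG1, the counts of 19 and 6 called higher and 34 below 0 were 16, 5 and 30 of 38. The lists were drawn up with results of these arrays known and are not independent evidence of a direction.

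Among the targets for cell cycle arrest, 5 of 7 were called higher with hydroxyurea, beside 3.12% of all genes, and 2 of 7 with hydroxyurea added to MS-275, beside 4.84%. SFN, which encodes the cell cycle inhibitor 14-3-3σ, had intensities of 788 with MS-275/hydroxyurea, 1918 with hydroxyurea, 639 with MS-275 and 855 in untreated cells. Like TP53I3, it stood apart on the array of hydroxyurea alone, with 2.24-fold for hydroxyurea against untreated cells and 1.23-fold in the presence of MS-275. E2F7, which encodes an atypical E2F repressor, gave 1.95-fold without and 2.39-fold with MS-275. MS-275 alone gave 0.61-fold for E2F7, and its intensity was 815 with MS-275/hydroxyurea and 1087 with hydroxyurea (0.75-fold). Of the targets for apoptosis and oxidative stress, 6 of 10 were higher with hydroxyurea without MS-275, beside 3.12% of all genes. With MS-275 this was 1 of 10, which is 1 gene beside 4.84% of all genes. PIDD1, which encodes a death domain protein, gave 2.42-fold without and 1.32-fold with MS-275.

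Of the metabolic and antioxidant targets, 4 of 9 were higher with hydroxyurea, beside 3.12% of all genes, and 1 of 9 with MS-275 also present, beside 4.84%. The ceramidase gene ACER2 gave 1.91-fold without and 1.35-fold with MS-275, and the sestrin gene SESN1 gave 1.88-fold and 1.43-fold. SESN1 was at 89.9 in untreated cells, marginally below the filter limit of 90.5. Only 2 of 8 listed repair targets had a named cluster, and both passed the filter. RPS27L gave 1.73-fold without and 1.31-fold with MS-275, and PCNA, the replication clamp gene, gave 1.48-fold and 2.10-fold. MS-275 alone gave 0.63-fold for PCNA, and MS-275/hydroxyurea against hydroxyurea gave 0.90-fold. Of the other 14 targets, 4 were higher without MS-275, beside 3.12% of all genes. With MS-275 this was 1 of 14, a share close to the 4.84% of all genes. TLR3, a receptor gene for double-stranded RNA, gave 2.56-fold and 1.37-fold, SERTAD1 gave 1.96-fold and 1.20-fold, and IKBIP gave 1.84-fold and 1.76-fold. TLR3 was at 328 with hydroxyurea and 128 in untreated cells. With MS-275/hydroxyurea (80.2) and MS-275 (58.4) it lay below the filter limit of 90.5. Its 1.37-fold thus compares dim values and is less certain. Over the 42 targets the hydroxyurea difference was thus not uniformly smaller with MS-275, and E2F7 and PCNA were among the 8 with a non-additivity above 0. For feedback on p53, 3 of 8 listed genes had a named cluster, and all 3 passed the filter. Of these, MDM4 was not called in either background (0.86-fold and 0.84-fold).

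**Figure D4:**
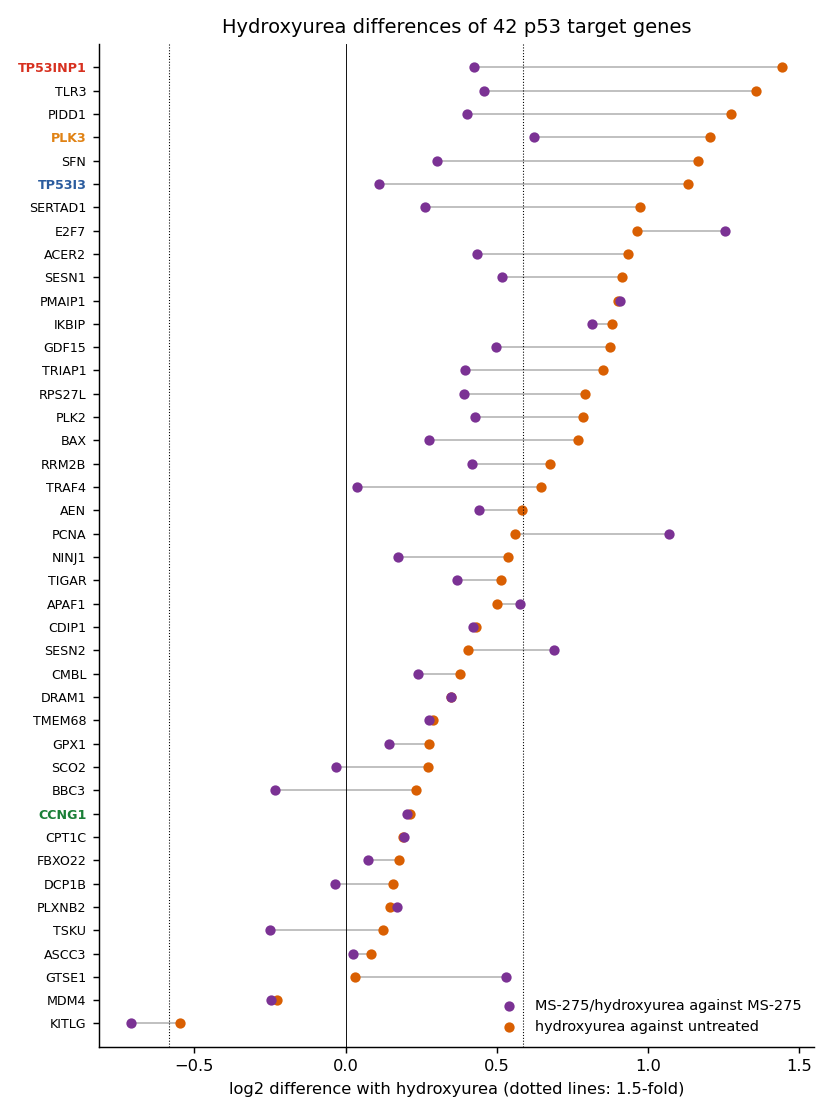
Log2 difference with hydroxyurea for 42 p53 target genes (rows), in the presence of MS-275 (purple) and in its absence (orange), with 1.5-fold dotted and the 4 genes of interest in bold. Of the orange points 19 passed 1.5-fold upwards, beside 3.12% of all genes, and of the purple points 6 did so, beside 4.84%. Downwards, 1 purple point (KITLG) passed it, beside 1.03% of all genes, and 0 orange points did, beside 1.27%.

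Of 14 genes past the filter that are related to p53 or act on it, 2 were higher and 0 lower with hydroxyurea against untreated cells, beside 3.12% and 1.27% of all genes, with a median log2 difference of -0.09. These were TP73, a p53 family gene, and KAT2B, which encodes an acetyltransferase, both at 1.92-fold. With MS-275 present, 3 were higher (TP73, KAT2B and CHEK2), beside 4.84% of all genes, and the median was 0.18. MS-275 against untreated cells gave 0 of the 14 higher and 4 lower, beside 6.94% and 6.84% of all genes. TP73 was at 0.54-fold there. With both drugs it was at 1.07-fold of untreated cells and 0.56-fold of hydroxyurea. HIPK2, the kinase partner of TP53INP1, had intensities of 1405 with MS-275/hydroxyurea, 1349 with hydroxyurea, 1560 with MS-275 and 1870 in untreated cells. Its highest value was that of untreated cells, and hydroxyurea alone gave 0.72-fold, which did not pass 1.5-fold. CHEK2, whose kinase phosphorylates p53, was at 0.98-fold with hydroxyurea alone, and hydroxyurea added to MS-275 gave 1.73-fold. MS-275 alone gave 0.62-fold for CHEK2, and with both drugs it was at 1.07-fold of untreated cells.

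The relatives of the 4 genes gave other values under the same treatments. Of the polo-like kinases, PLK2, itself a p53 target of the stress response, was nearest to PLK3, with 1.72-fold for hydroxyurea against untreated cells and 1.35-fold in the presence of MS-275. PLK1, the mitotic member, was at 0.70-fold with hydroxyurea and fell to 0.60-fold with MS-275, each against untreated cells. PLK4, the kinase of centriole duplication, fell to 0.48-fold with MS-275 alone, hydroxyurea added to MS-275 gave 2.23-fold, and with both drugs it was at 1.08-fold of untreated cells. TP53INP2, a paralogue that acts in autophagy, was at 1.25-fold with either single drug, against 2.72-fold and 2.71-fold for TP53INP1. CCNG2, the paralogue of CCNG1, was 1.62-fold higher with MS-275 both without and with hydroxyurea, whereas CCNG1 was at 0.94-fold and 0.93-fold. The cyclin I gene CCNI was at 1.34-fold and the kinase gene GAK at 1.11-fold with MS-275 alone. Of 5 relatives of TP53I3 past the filter (TP53I11, VAT1, MECR, PTGR1 and PTGR2), 0 were called with hydroxyurea in either background. Of all genes, 3.12% were higher and 1.27% lower without MS-275, and 4.84% and 1.03% with it, so 0 of 5 was near these shares. The prostaglandin reductase gene PTGR1 was 1.58-fold higher with MS-275/hydroxyurea than with hydroxyurea, the opposite of TP53I3.

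PLK3 and TP53INP1 also respond to stress signals outside p53, and immediate early and autophagy genes were therefore examined. Of 19 immediate early and acute stress genes, 2 were higher with hydroxyurea against untreated cells, beside 3.12% of all genes. With MS-275 against untreated cells 5 were higher and 1 lower, beside 6.94% and 6.84% of all genes. The lower one was FOSL1, which encodes another AP-1 subunit and was at 0.43-fold. JUN, a subunit of the AP-1 transcription factor, had intensities of 204 with MS-275/hydroxyurea, 154 with hydroxyurea, 208 with MS-275 and 78.4 in untreated cells. Its 3 treated arrays lay above that of untreated cells, as for TP53INP1, and hydroxyurea gave 1.97-fold without and 0.98-fold with MS-275. The untreated value of JUN lay below the filter limit of 90.5, so its 1.97-fold rests on a dim reference and is less certain. JUNB had a non-additivity of -0.78 and ATF3 of -0.64, and in the presence of MS-275 hydroxyurea gave 0.86-fold for JUNB and 1.26-fold for ATF3. ATF3 was also below the filter limit in untreated cells, at 71.5. Of the 19 genes, 3 (JUN, JUNB and ATF3) had a non-additivity past 1.5-fold below 0, beside 1.57% of all genes. Past it above 0 was 1 gene (CDC25C, 0.62), beside 2.72% of all genes. Of 17 autophagy genes, 0 were called with hydroxyurea in either background. Of all genes, 3.12% were higher and 1.27% lower without MS-275, and 4.84% and 1.03% with it, so 0 of 17 was near these shares. The largest non-additivity in that list was -0.41, for TECPR1, followed by 0.35 for ATG3 and 0.29 for ATG7.

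The genes with the most similar patterns were found by the Euclidean distance between the 3 log2 differences to untreated cells (MS-275/hydroxyurea, hydroxyurea and MS-275), over the 4 arrays. Nearest to TP53INP1 were the growth factor gene FGF18 (0.24), the sulfatase gene SULF2 (0.25) and NDRG4 (0.27), and 8 of all other genes lay within 0.5. All 3 were higher with each drug and highest with both, and FGF18 gave 3.73-fold for MS-275/hydroxyurea, 2.34-fold for hydroxyurea and 2.90-fold for MS-275. In untreated cells FGF18 (80.3) and, marginally, NDRG4 (90.3) lay below the filter limit of 90.5, so their folds are less certain. Nearest to TP53I3 were FXYD3 (0.12), which encodes a regulator of the sodium pump, and the p53 targets SFN (0.14) and PIDD1 (0.30), and 6 genes lay within 0.5. FXYD3 had intensities of 103 with MS-275/hydroxyurea, 291 with hydroxyurea, 101 with MS-275 and 124 in untreated cells. PLK3 had the lipocalin gene APOD (0.18), the homeobox gene LHX2 (0.24) and LYPD3 (0.25) as its nearest genes and 28 genes within 0.5. APOD was dim, at 61.3 in untreated cells and 76.4 with MS-275, both below the filter limit of 90.5. It passed the filter only through the arrays of hydroxyurea (138) and MS-275/hydroxyurea (109), so its likeness to PLK3 is less certain. CCNG1, with its small differences, had 3581 genes within 0.5, the nearest being UBE2A, MADD and CNIH1 at 0.02 to 0.03. Likeness over 4 arrays describes these arrays and carries no statement on shared control.

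**Figure D5:**
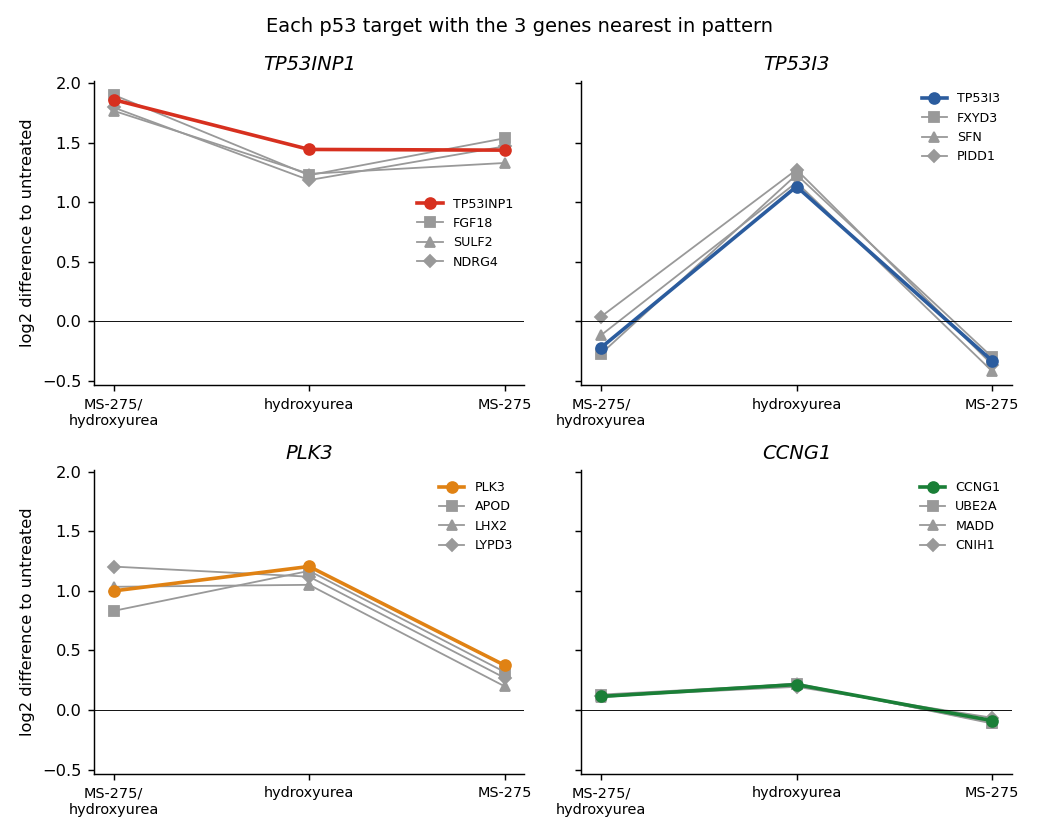
Log2 difference to untreated cells with MS-275/hydroxyurea, hydroxyurea and MS-275 for each of the 4 p53 targets (coloured) and the 3 genes of nearest pattern (grey), with 1 array per condition. TP53INP1 and its neighbours lay above 1 in all treatments, TP53I3 and its neighbours peaked with hydroxyurea alone, PLK3 and its neighbours were high on both arrays with hydroxyurea, and CCNG1 stayed close to 0.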

How the data were processed

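RNA of HCT116 cells was measured on 4 Affymetrix Human Gene 2.0 ST arrays, each of another condition. The intensities deposited by the authors are RMA values, and their range shows a linear scale. No source used here names the software. The platform's probe table gave 1 symbol for 16098 of 53617 clusters and 0 clusters had several, while 37519 are unnamed here. All 16098 matched a RefSeq gene record. Of several clusters of a gene, the brightest stood for it.

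Differences, counts and ranks were computed with Python 3.11.15, numpy 2.4.6 and pandas 2.3.3, figures were drawn with matplotlib 3.10.9, and the steps were tested on simulated data. Log2 was taken without a pseudocount. Named genes were the 4 p53 targets, the 3 genes per p53 list with the largest hydroxyurea difference, set regulators, all relatives, the 3 immediate early and autophagy genes with the largest non-additivity, and the 3 nearest patterns per gene. KITLG, named as the only lower gene of its list, was chosen after its value was seen. The same holds for FOSL1, CDC25C, TP73, KAT2B, the named marker genes and the sum of intensity differences. Small RNAs, uncharacterised loci and antisense genes were left out of rankings. The genes and lists were chosen with earlier results of these data known. The alternatives were centring of arrays, renewed quantile normalization, a pseudocount of 50, the mean of a gene's clusters, no filter, a filter at the 75th percentile and a 2-fold rule. Precision is limited by the small number of arrays.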

Additional observations from a re-analysis of the deposited data

Results flagged for a closer look

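For PLK3, the difference with MS-275 had opposite directions without and with hydroxyurea. Its log2 difference was 0.38 between MS-275 and untreated cells and -0.21 between MS-275/hydroxyurea and hydroxyurea. Each value rests on 1 pair of arrays, neither passed 1.5-fold, and the difference between them was not tested.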

How the results depend on the processing

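The 24 differences of the 4 genes (5 comparisons and non-additivity each) were recomputed under 7 alternatives, which gave 162 values, because TP53I3 did not pass the filter at the 75th percentile. Of these, 159 kept their direction and their side of the limit, 0 reversed, and 3 no longer passed, all of PLK3. Much of this was fixed in advance, because each of the 4 genes had 1 cluster. The mean of a gene's clusters (24 values), no filter (24) and the filter at the 75th percentile (18) could only return the main values. A 2-fold rule left the differences unchanged and could not reverse a direction. Between MS-275/hydroxyurea and MS-275, PLK3 was at 0.55 on the log2 scale with a pseudocount of 50 and, at 0.62, did not pass a 2-fold rule. Between MS-275/hydroxyurea and untreated cells it was at 1.00 (2.00-fold), marginally short of a 2-fold rule. Non-additivity on the scale of intensities, added after the data were seen, was below 0 for all 4 genes, at -221 for TP53INP1, -189 for TP53I3, -130 for PLK3 and -19.6 for CCNG1. Among p53 targets, 11 of 23 were higher with hydroxyurea with the filter at the 75th percentile and 6 of 42 with a 2-fold rule, which 2 of 42 passed between MS-275/hydroxyurea and MS-275. With the filter at the 75th percentile, 17 of 23 had a non-additivity below 0. Shares over all genes were not computed for this filter or the 2-fold rule. These counts therefore have no background beside them and describe the p53 targets only. Centring and renewed quantile normalization moved the median of all genes by at most 0.04. With 1 array per condition, a deviation of 1 array cannot be told apart from a difference between conditions.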
